A study of Homo sapiens with 12 samples.

Results

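The RNA of 10 genes of the PARP1 and ADP-ribose damage response was followed in HCT116, a long-established line of human colon carcinoma cells with wild-type p53. The genes were a listed set: PARP1, PARP2, PARP3, HPF1, PARG, ADPRHL2 (also called ADPRS or ARH3), MACROD1, XRCC1, AIFM1 and NAMPT. All 10 were found among the 16676 genes of the deposited table, and all 10 were among the 15256 genes with a level high enough to be tested. There were SPARCLE knockout cells (KO), SPARCLE over-expressing cells (OE) and wild-type cells (WT), SPARCLE being a long non-coding RNA. Each kind was kept for 48 h in medium with 1 µM doxorubicin (dox) or in regular medium (control), which gave 6 groups of 2 biological replicates and 12 libraries. The title of the series ties SPARCLE to the cleavage of the PARP1 protein, which RNA-seq does not measure. The labels do not say how the KO and OE cells were made or whether the replicates of a line are separate clones, so p-values measure only the spread between these libraries.

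ADP-ribosylation is an early mark of DNA damage. PARP1 and PARP2 bind broken DNA and use NAD to build chains of ADP-ribose on themselves and on chromatin proteins, and their cofactor HPF1 directs the mark to serines. PARP3, a relative that adds single ADP-ribose units, also responds to breaks. The chains recruit repair factors such as the scaffold XRCC1 and are soon removed: PARG cuts the chains, ADPRHL2 takes the last unit off serine, and MACROD1 takes it off acidic residues. NAMPT makes the NAD precursor that this cycle consumes. When PARP1 is overactive, AIFM1 can leave mitochondria for the nucleus in a form of cell death called parthanatos, whereas in apoptosis PARP1 is cut by proteases. The anthracycline doxorubicin poisons topoisomerase II, which leaves double-strand breaks.

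Promoter sequences are shown for a pair of genes that fell with doxorubicin, PARP1 and HPF1, and a pair that rose, PARG and ADPRHL2, all 4 called on the mean of the lines. Each runs from 250 bases before to 50 bases after a start of the gene in RefSeq on GRCh38.p14, 5′ to 3′ on the strand of the gene. For PARG the window lies inside the gene span given further on (49818279 to 49970203), so the start used is not the outermost one. Capitals mark GGGCGG (the core of a GC box, bound by SP1 family factors), CCAAT (the CCAAT box) and TTTGAA (the cell cycle homology element), each searched on both strands, so that CCGCCC and ATTGG also stand in capitals. PARP1 lies at chr1:226408044-226408343 on the minus strand, HPF1 at chr4:169757895-169758194 on the minus strand, PARG at chr10:49941978-49942277 on the minus strand and ADPRHL2 at chr1:36088642-36088941 on the plus strand.
PARP1: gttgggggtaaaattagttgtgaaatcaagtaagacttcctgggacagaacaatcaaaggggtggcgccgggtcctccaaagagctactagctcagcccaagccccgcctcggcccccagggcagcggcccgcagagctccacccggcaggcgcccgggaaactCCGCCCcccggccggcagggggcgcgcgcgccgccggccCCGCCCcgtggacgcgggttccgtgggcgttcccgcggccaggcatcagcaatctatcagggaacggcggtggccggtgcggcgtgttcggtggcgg
HPF1: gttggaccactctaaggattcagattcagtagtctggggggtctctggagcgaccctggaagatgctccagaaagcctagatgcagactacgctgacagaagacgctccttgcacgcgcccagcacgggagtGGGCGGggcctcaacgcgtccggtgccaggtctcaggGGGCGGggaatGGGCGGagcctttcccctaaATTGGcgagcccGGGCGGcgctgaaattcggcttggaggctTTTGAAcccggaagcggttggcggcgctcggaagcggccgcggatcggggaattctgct
PARG: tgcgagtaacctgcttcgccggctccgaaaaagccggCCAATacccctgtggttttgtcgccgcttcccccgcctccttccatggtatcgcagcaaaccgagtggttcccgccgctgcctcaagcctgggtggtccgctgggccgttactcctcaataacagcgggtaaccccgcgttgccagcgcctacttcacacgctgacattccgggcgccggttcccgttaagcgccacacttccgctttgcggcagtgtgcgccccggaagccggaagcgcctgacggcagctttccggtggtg
ADPRHL2: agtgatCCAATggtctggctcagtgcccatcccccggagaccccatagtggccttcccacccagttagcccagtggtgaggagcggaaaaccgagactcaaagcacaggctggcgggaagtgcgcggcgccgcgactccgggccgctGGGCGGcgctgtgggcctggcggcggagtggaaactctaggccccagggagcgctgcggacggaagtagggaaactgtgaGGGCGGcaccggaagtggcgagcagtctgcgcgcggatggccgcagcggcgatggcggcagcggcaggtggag

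All 10 genes were matched to a promoter. Like that of PARG, the windows of XRCC1 and NAMPT lie inside the gene spans given further on, so the matches hold for the RefSeq starts used. GGGCGG was found in 7 of the 10 (45.0% of all 35116 promoters), CCAAT in 5 (34.6%) and TTTGAA in 2, HPF1 and XRCC1 (15.2%). GGGCGG occurred 2 times in PARP1, 4 times in HPF1 and 2 times in ADPRHL2, and PARG had none but a CCAAT box. GGGCGG was in all 4 genes that fell and in 1 of the 4 that rose (ADPRHL2). It was also in MACROD1 and XRCC1, which were not called. CCAAT was in 1 that fell (HPF1), in 3 that rose (PARG, ADPRHL2 and AIFM1) and in XRCC1. G and C made up 58.3% (PARP2) to 73.0% (NAMPT) of the bases of a window, against a median of 58.7% for promoters. The shares of all promoters were not matched for this content. The E2F motifs TTTGGCGC (0.652% of promoters) and TTTCCCGC (1.63%) were found in none of the 10 windows. These matches describe the sequence only, and no marked match overlaps another.

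The labels were checked against SPARCLE itself. It had 430 and 487 reads in OE cells with dox and 384 and 622 in OE control cells, against 4 and 1 in KO cells with dox, 0 and 3 in WT cells with dox, and 0 reads in all 4 KO and WT control libraries. The dox libraries of OE cells were deeper than the control ones. In TPM, SPARCLE in OE cells stood at 13.7 and 13.5 with dox, against 26.5 and 27.3 in control. It was thus 0.94 log2 units lower with dox in OE cells (SE 0.22, limma adjusted p = 0.0102). The depth was too low to show whether KO cells had less SPARCLE than WT cells. With dox, CDKN1A, the p53-induced gene of p21, was 2.98 ± 0.20 log2 units higher (SE, mean of the 3 lines, limma adjusted p = 4e-07), and CCNB1, the gene of cyclin B1, was 1.96 ± 0.15 lower (adjusted p = 9.1e-07). For all 8 intestinal epithelial markers looked for, of which 7 passed the filter for testing, the summed level was 2680 to 3320 TPM with dox and 995 to 2180 TPM in control. Of 8 leukocyte markers, 2 were analysed, CD68 and HLA-DRA (summed 7.84 to 20.5 TPM with dox and 20.1 to 53.8 TPM in control), and PTPRC, CD3E and CD14 were not analysed here. Of 8 mesenchymal markers 4 were analysed, with a summed level of 3.59 to 9.16 TPM with dox and 9.63 to 13.4 TPM in control. The part of these shifts in the results was not tested. The libraries held 12595614 to 30679573 reads on listed genes, and the 10 genes had 113 (PARP3) to 4911 (PARP1) reads in a library.

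The question was how the genes that write, read and erase ADP-ribose respond to doxorubicin. The genes of both chain-building enzymes and of their cofactor fell, while the genes of PARP3 and of the erasers PARG and ADPRHL2 rose. Levels are given in TPM (a share of all transcripts, scaled by gene length), and differences as dox minus control on the log2(TPM + 1) scale, which understates the change of low genes. A gene was called at a limma adjusted p under 0.05 over all 15256 genes. On the mean of the WT, KO and OE differences, 4 of the 10 genes were higher and 4 were lower, where 32.2% of all genes tested were called higher and 25.9% lower. The 4 that rose were PARP3, ADPRHL2, PARG and AIFM1, the 4 that fell were PARP2, NAMPT, PARP1 and HPF1, and XRCC1 and MACROD1 did not pass the test. The share of called genes was therefore not far above that of all genes, and the median of the 10 differences was -0.10, against 0.09 for all genes. These 8 calls held under all 19 alternatives tried, among them each of the 12 libraries left out in turn. None of these alternatives allows for a dependence between KO and OE libraries alone. Over genes, the differences of replicate a minus b correlated at 0.81 between KO and OE cells with dox. The 12 libraries may thus hold less information than the p-values assume. RNA-seq of whole cultures gives shares of the RNA of a culture, so fewer cells of a kind and less RNA per cell cannot be told apart.

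**Figure D1:**
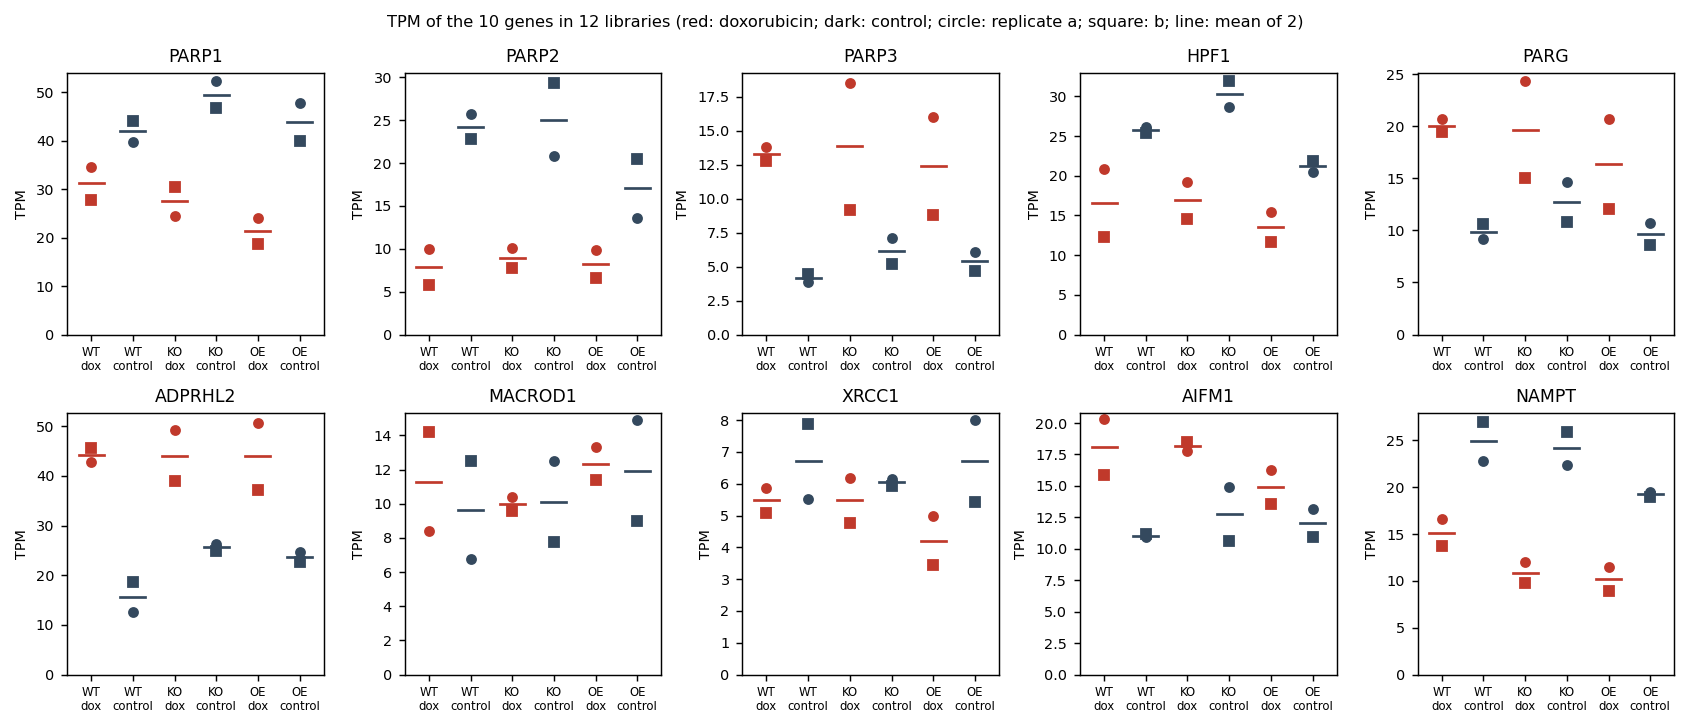
TPM (y axes, from 0) of the 10 genes in the 6 groups (x axes), with red points for dox, dark points for control, circles for replicate a, squares for b and a line at the mean of 2. PARP1, PARP2 and NAMPT lie lower in all 6 dox libraries than in any control library, and PARP3 and ADPRHL2 lie higher in all 6. The share of all genes parted in this way is not given here.

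PARP1 (ENSG00000143799, chromosome 1, 226360691 to 226408079 on GRCh38, minus strand), the main sensor of strand breaks, was lower in every dox library than in any control library. It stood at 34.6 and 27.8 TPM in WT cells with dox, against 39.8 and 44.0 TPM in WT control cells. In KO cells it stood at 24.5 and 30.5 TPM with dox, against 52.2 and 46.7 TPM in control. In OE cells it stood at 24.1 and 18.7 TPM with dox, against 47.7 and 39.9 TPM in control. The mean level with dox was thus 0.745 times the control level in WT, 0.556 times in KO and 0.488 times in OE cells. PARP1 fell by 0.75 ± 0.13 log2 units on the mean of the lines (SE, limma adjusted p = 0.000291), by 0.83 in KO (SE 0.22, adjusted p = 0.0176) and by 1.01 in OE cells (SE 0.22, adjusted p = 0.00772). In WT cells the difference of -0.42 (95% interval -0.89 to 0.06, adjusted p = 0.156) did not pass the test, although it did after median-ratio scaling of the libraries (-0.63, adjusted p = 0.025). The KO call was lost without KO dox replicate a (adjusted p = 0.136) or either KO control replicate (0.0746 and 0.0682), and the OE call without OE control replicate a (0.0661).

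In order of mean level, PARP1 was highest in KO control (49.4 ± 3.92 TPM, SD, n = 2), followed by OE control (43.8 ± 5.53) and WT control (41.9 ± 3.01). Below these came WT dox (31.2 ± 4.79), KO dox (27.5 ± 4.27) and OE dox (21.4 ± 3.82). The 3 control groups overlapped their neighbours in this order, and so did WT dox and KO dox. The highest dox library (34.6 TPM) lay below the lowest control library (39.8 TPM). KO dox and OE dox were parted by a narrow gap in TPM (24.5 TPM in the lowest KO library and 24.1 TPM in the highest OE library), and they overlapped once the median gene of each library was set level.

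PARP2 (ENSG00000129484, chromosome 14, 20343582 to 20357905, plus strand), which shares chain building with PARP1, had the largest fall of the 10 genes on the mean of the lines. With dox it had 9.98 and 5.73 TPM in WT, 10.1 and 7.76 TPM in KO and 9.82 and 6.62 TPM in OE cells. In control medium it had 25.7 and 22.8 TPM in WT, 20.8 and 29.3 TPM in KO and 13.6 and 20.5 TPM in OE cells. The highest dox library lay below the lowest control library. PARP2 fell by 1.30 ± 0.18 log2 units on the mean (SE, limma adjusted p = 6.37e-05), by 1.55 in WT (adjusted p = 0.00313), 1.38 in KO (0.00794) and 0.97 in OE cells (0.0398). In OE cells the call was lost without OE dox replicate b (adjusted p = 0.156) or either OE control replicate (0.0537 and 0.282), and in KO cells without KO control replicate b (0.083). PARP2 shares 104 exonic bases (2.5% of its exons) with AL355075.4 on the opposite strand, a very abundant RNA of 36400 to 58200 TPM with dox and 25900 to 39600 TPM in control. AL355075.4 rose by 0.59 log2 units (SE 0.18, limma adjusted p = 0.0121) while PARP2 fell. The strand setting of the counting is not given in the sources used here, and the part of antisense reads was not tested.

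PARP3 (ENSG00000041880, chromosome 3, 51942345 to 51948867, plus strand) moved the other way. With dox it had 13.8 and 12.8 TPM in WT, 18.5 and 9.20 TPM in KO and 16.0 and 8.80 TPM in OE cells. In control medium it had 3.90 and 4.47 TPM in WT, 7.14 and 5.23 TPM in KO and 6.10 and 4.67 TPM in OE cells. Every dox library was above every control library, and replicate a with dox was well above replicate b in KO and OE cells. PARP3 rose by 1.16 ± 0.20 log2 units on the mean (SE, limma adjusted p = 0.0003), by 1.47 in WT (adjusted p = 0.00695) and by 1.03 in OE cells (0.0455). In KO cells the difference of 0.99 missed the threshold (adjusted p = 0.0509), and it passed after median-ratio scaling (0.00566). The WT call was lost without WT dox replicate a (adjusted p = 0.051) or WT control replicate a (0.0577). The OE call was lost without OE dox replicate a (0.282), without either OE control replicate (0.0925 and 0.238), and with no filter on low values (0.0521).

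HPF1 (ENSG00000056050, chromosome 4, 169729465 to 169757953, minus strand) fell about as far as PARP1. It had 20.8 and 12.3 TPM in WT, 19.2 and 14.6 TPM in KO and 15.4 and 11.7 TPM in OE cells with dox. In control medium it had 26.1 and 25.4 TPM in WT, 28.7 and 31.9 TPM in KO and 20.5 and 21.9 TPM in OE cells. The replicates with dox did not overlap their own line in control. HPF1 fell by 0.70 ± 0.15 log2 units on the mean (SE, limma adjusted p = 0.00162) and by 0.82 in KO cells (adjusted p = 0.0371), a call that was lost without any 1 of the 4 KO libraries (0.0581 to 0.182). The differences of -0.65 in WT (adjusted p = 0.0713) and -0.62 in OE cells (0.0997) did not pass the test, but both did after median-ratio scaling (0.00677 and 0.0168).

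The genes of the erasers ADPRHL2 and PARG rose on the mean of the lines. ADPRHL2 (ENSG00000116863, chromosome 1, 36088875 to 36093932, plus strand) had 42.8 and 45.7 TPM in WT, 49.2 and 38.9 TPM in KO and 50.7 and 37.1 TPM in OE cells with dox. In control medium it had 12.5 and 18.6 TPM in WT, 26.3 and 24.9 TPM in KO and 24.7 and 22.6 TPM in OE cells. The levels with dox were alike in the 3 lines (means of 44.3, 44.1 and 43.9 TPM), and the WT control libraries were the lowest of all 12. ADPRHL2 rose by 1.03 ± 0.14 log2 units on the mean (SE, limma adjusted p = 5.5e-05), by 1.48 in WT (adjusted p = 0.00101), 0.75 in KO (0.0369) and 0.85 in OE cells (0.0241). The KO and OE calls were each lost without any of 3 of their 4 libraries (0.0824 to 0.226 in KO and 0.0782 to 0.146 in OE cells).

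PARG (ENSG00000227345, chromosome 10, 49818279 to 49970203, minus strand) had 20.7 and 19.4 TPM in WT, 24.3 and 15.0 TPM in KO and 20.7 and 12.1 TPM in OE cells with dox. The control libraries held 9.17 and 10.6 TPM in WT, 14.6 and 10.8 TPM in KO and 10.7 and 8.57 TPM in OE cells. Within each line the dox libraries lay above the control libraries, by a narrow gap in KO and OE cells. PARG rose by 0.73 ± 0.17 log2 units on the mean (SE, limma adjusted p = 0.00277) and by 0.95 in WT cells (adjusted p = 0.027), a call that was lost without any 1 of the 4 WT libraries (0.0608 to 0.152). The differences of 0.57 in KO (adjusted p = 0.172) and 0.67 in OE cells (0.115) did not pass the test, but both did after median-ratio scaling (0.022 and 0.0254). A near copy, the pseudogene PARGP1 on the same chromosome, was listed at 4.28 to 7.44 TPM, and how reads were divided between copies is not given in the sources used here.

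MACROD1 (ENSG00000133315, chromosome 11, 63998558 to 64166106, minus strand), the eraser that acts on acidic residues, did not pass the test. It ranged from 8.40 to 14.2 TPM with dox (median 10.9) and from 6.76 to 14.9 TPM in control (median 10.7), and the mean difference was 0.11 (95% interval -0.33 to 0.54, limma adjusted p = 0.666). Its replicates differed more than its groups, with 8.40 and 14.2 TPM in WT cells with dox and 6.76 and 12.5 TPM in WT control cells.

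**Figure D2:**
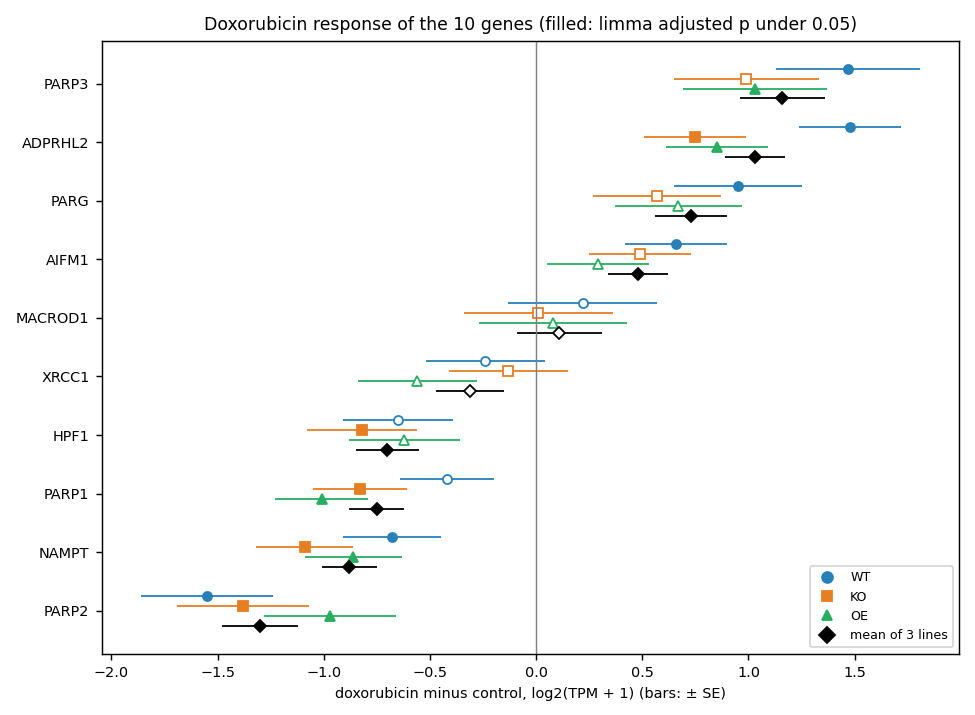
Difference between dox and control (x axis, log2(TPM + 1) units, bars ± SE) of the 10 genes (rows) in WT, KO and OE cells and on their mean, filled where the limma adjusted p was under 0.05. PARP3, ADPRHL2, PARG and AIFM1 lie right of 0, and HPF1, PARP1, NAMPT and PARP2 lie left of it in all 3 lines.

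Among the genes that act on the mark or feed it, NAMPT fell. NAMPT (ENSG00000105835, chromosome 7, 106248285 to 106286326, minus strand), the rate-limiting enzyme of NAD salvage from nicotinamide, had 16.6 and 13.7 TPM in WT, 12 and 9.76 TPM in KO and 11.5 and 8.92 TPM in OE cells with dox. Control cells had 22.8 and 27 TPM in WT, 22.4 and 25.9 TPM in KO and 19.5 and 19.0 TPM in OE cells. No dox library reached the lowest control library. NAMPT fell by 0.88 ± 0.13 log2 units on the mean (SE, limma adjusted p = 0.000118), by 0.68 in WT (adjusted p = 0.0356), 1.09 in KO (0.00552) and 0.86 in OE cells (0.0181). The WT call was lost without any 1 of the 4 WT libraries (0.0727 to 0.188), the KO call without KO control replicate b (0.0571) and the OE call without any of 3 of the 4 OE libraries (0.0661 to 0.106). The pseudogene NAMPTP1 was listed at 1.11 to 3.96 TPM. NAMPT also shares 786 exonic bases (8.7% of its exons) with AC007032.1 on the opposite strand. That RNA was listed at 0.542 to 0.952 TPM with dox and 1.21 to 2.66 TPM in control. Like NAMPT it was lower with dox, by 0.65 log2 units on the mean (SE 0.15, limma adjusted p = 0.002). The part of antisense reads was not tested.

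AIFM1 (ENSG00000156709, X chromosome, 130129362 to 130165887, minus strand), the mitochondrial flavoprotein of parthanatos, had 20.3 and 15.9 TPM in WT, 17.8 and 18.5 TPM in KO and 16.3 and 13.6 TPM in OE cells with dox. In regular medium it stood at 10.9 and 11.2 TPM in WT, 14.9 and 10.6 TPM in KO and 13.2 and 10.9 TPM in OE cells. In OE cells the lowest dox library (13.6 TPM) barely exceeded the highest control library (13.2 TPM). AIFM1 rose by 0.48 ± 0.14 log2 units on the mean (SE, limma adjusted p = 0.0091). It rose by 0.66 in WT cells (adjusted p = 0.0494), which did not hold after median-ratio scaling (0.0554), with no filter (0.0513) or without any 1 of the 4 WT libraries (0.0762 to 0.263). The differences of 0.49 in KO (adjusted p = 0.145) and 0.29 in OE cells (0.387) did not pass the test, and that in KO cells did after median-ratio scaling (0.0435), without small RNA genes (0.0294) and by voom (0.0322).

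XRCC1 (ENSG00000073050, chromosome 19, 43543040 to 43580473, minus strand), the scaffold of single-strand break repair, was the lowest of the 10 genes with dox, at 3.44 to 6.18 TPM (median 5.03), against 5.44 to 7.99 TPM in control (median 6.05). The ranges overlapped, and the mean difference of -0.31 (95% interval -0.66 to 0.04, limma adjusted p = 0.118) did not pass the test. After median-ratio scaling it did (-0.40, adjusted p = 0.0043). XRCC1 shares 224 exonic bases (6.5%) with L34079.1 on the same strand, which was listed at 2.21 to 5.79 TPM. On the opposite strand it shares 537 exonic bases (15.5%) with L34079.3 and 68 (2.0%) with L34079.2, which have no listed level. The part of antisense reads was not tested.

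Within the lines, 6 of the 10 genes were called in WT cells (4 higher and 2 lower), against 19.6% and 12.6% of all genes. In KO cells 5 were called (1 higher and 4 lower), against 9.90% and 14.3%. In OE cells 5 were called (2 higher and 3 lower), against 12.4% and 10.6%. PARP2, ADPRHL2 and NAMPT were called in each of the 3 lines. These counts rest on single libraries. Without any 1 of the 4 WT libraries 2 to 3 genes were called in WT cells. In KO cells 2 were called without KO dox replicate a or KO control replicate a, and 0 without KO control replicate b. In OE cells 3 were called without OE dox replicate a, 0 without OE control replicate a and 1 without OE control replicate b. With only the compared groups in the limma fit, the calls of HPF1 (adjusted p = 0.0595) and ADPRHL2 (0.0649) in KO cells and of NAMPT in OE cells (0.0603) were lost. With median-ratio scaling, which sets the median gene of each library level, 7 genes were called in WT, 8 in KO, 8 in OE cells and 9 on the mean. That scaling also called more of all genes, 45.7% in WT, 37.5% in KO, 39.3% in OE cells and 66.6% on the mean. The median of all genes stood at 0.17 log2 units in WT, -0.01 in KO and 0.11 in OE cells before it. Relative to that median, PARP1 stood at -0.59 in WT, -0.82 in KO and -1.11 in OE cells.

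A ratio of genes within 1 library does not depend on how the library was scaled. The ratio of PARP1 to PARG, in TPM, was 1.67 and 1.43 in the WT libraries with dox, 1.01 and 2.03 in those of KO cells, and 1.16 and 1.54 in those of OE cells. In regular medium the ratio was 4.34 and 4.15 for WT, 3.58 and 4.34 for KO, and 4.45 and 4.66 for OE cells. The mean was 1.47 ± 0.365 with dox and 4.25 ± 0.370 in control (SD, n = 6 each), and no dox library reached any control library. PARP1 to ADPRHL2 ranged from 0.475 to 0.808 with dox, against 1.76 to 3.19 in control, so that ADPRHL2 exceeded PARP1 in all 6 dox libraries and in none of the 6 control libraries. PARP2 to PARP3 likewise ranged from 0.448 to 0.844 with dox, against 2.23 to 6.59 in control. PARP2 to PARG ranged from 0.295 to 0.546 with dox, against 1.27 to 2.80 in control. Ratios among the genes that fell overlapped: HPF1 to PARP1 ranged from 0.442 to 0.783 with dox and from 0.429 to 0.683 in control, and NAMPT to PARP1 from 0.320 to 0.492 with dox and from 0.409 to 0.613 in control. The ratios restate the levels above, and no test was made on them.

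**Figure D3:**
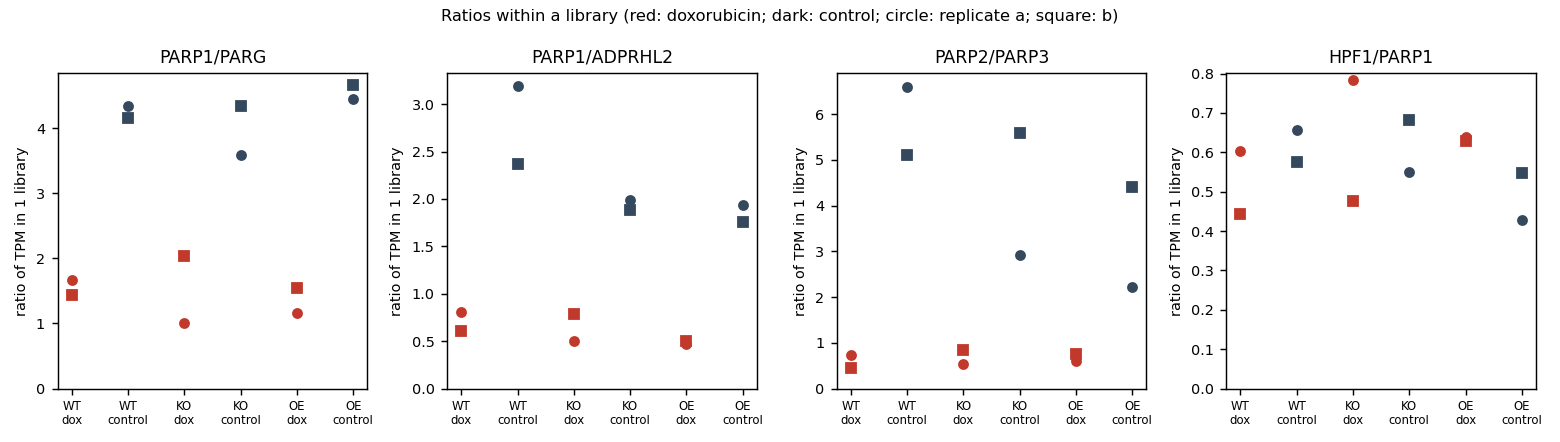
Ratio of the TPM of 2 genes within a library (y axes, from 0) in the 6 groups (x axes), with red points for dox, dark points for control, circles for replicate a and squares for b. PARP1/PARG, PARP1/ADPRHL2 and PARP2/PARP3 are lower in all 6 dox libraries than in any control library, while HPF1/PARP1 overlaps.

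The next question was whether SPARCLE changed these genes. None of the 10 was called between KO or OE and WT cells in either medium or in either interaction with dox. Of all genes, 0.0918% were called for KO over WT and 0.118% for OE over WT in control medium. With dox, 0.295% were called for KO over WT and 0.315% for OE over WT, and each interaction had 0.00655% (1 gene). By limma-voom on recovered reads and with median-ratio scaling, 0 of the 10 were called too. At an unadjusted p under 0.05 there was 1 gene for KO over WT and 1 for OE over WT in control medium. With dox there were 0 for KO over WT and 2 for OE over WT, and each interaction had 0. Of all 15256 genes tested, 1090 (KO over WT) and 767 (OE over WT) were under 0.05 in control medium. With dox, 523 (KO over WT) and 737 (OE over WT) were, and the interactions had 194 (KO) and 150 (OE). These comparisons share the WT libraries.

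Among the 10, the gene under 0.05 in control medium was ADPRHL2 each time. It was 0.71 log2 units higher in KO than in WT cells (95% interval 0.19 to 1.22, unadjusted p = 0.0108, limma adjusted p = 0.609) and 0.60 higher in OE than in WT cells (95% interval 0.09 to 1.12, unadjusted p = 0.0258, limma adjusted p = 0.894). The same 2 WT control libraries, at 12.5 and 18.6 TPM, lie below both.

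With dox, PARP1 and NAMPT were the genes of the 10 under 0.05 for OE over WT. PARP1 stood at 24.1 and 18.7 TPM in OE cells, against 34.6 and 27.8 TPM in WT cells, a difference of -0.53 (95% interval -1.0 to -0.05, unadjusted p = 0.0318, limma adjusted p = 0.944). The median of all genes lay at -0.12 in that comparison. NAMPT differed by -0.53 (95% interval -1.02 to -0.04, limma adjusted p = 0.964). For KO over WT with dox, PARP1 differed by -0.18 (95% interval -0.65 to 0.30) and NAMPT by -0.44 (-0.93 to 0.05). In control medium PARP1 differed by 0.23 in KO over WT (95% interval -0.24 to 0.71, and -0.01 after median-ratio scaling) and by 0.06 in OE over WT cells (-0.41 to 0.53).

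The response of PARP1 to dox was itself compared between lines. It differed from that of WT cells by -0.41 in KO (95% interval -1.08 to 0.26, limma adjusted p = 1) and by -0.59 in OE cells (95% interval -1.26 to 0.08, limma adjusted p = 1). The call of PARP1 in KO and OE cells and not in WT cells is therefore not shown to be a difference between the lines. The interaction estimates of the other 9 genes ran from -0.73 (ADPRHL2, KO) to 0.59 (PARP2, OE), with SEs of 0.32 to 0.49. Intervals of this width leave room for differences of about the size of the dox response.

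Genes around the 10 were read from 5 lists of textbook pathways, whose counts stand against the 32.2% of all genes called higher and the 25.9% called lower on the mean of the lines. Of 23 partners in strand-break and base excision repair, 9 were higher and 4 lower with dox (32.2% and 25.9% of all genes), and the list median was 0.19 against 0.09 for all genes. NEIL1, a glycosylase of oxidised bases, stood at 5.82 ± 2.41 TPM with dox and 1.23 ± 0.404 TPM in control (SD, n = 6 each), 1.56 log2 units higher (limma adjusted p = 0.000114). PCNA, the replication and repair clamp and a known p53 target, rose by 1.34, SMUG1, a uracil glycosylase, by 1.12, and APTX, which clears failed ligation ends, by 0.94. NEIL3, a glycosylase of dividing cells, fell by 1.58 log2 units, the flap nuclease gene FEN1 by 1.06, the glycosylase gene MBD4 by 0.55 and LIG3, the ligase that partners XRCC1, by 0.39. The flap nuclease and the clamp, which work together, thus moved in opposite directions.

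Of 13 tested other writers, readers and erasers of ADP-ribose (15 in the list), 4 were higher and 3 lower (32.2% and 25.9% of all genes), and the median was 0.09, as for all genes. These shares are near those of all genes. ADPRH, the eraser of arginine-linked ADP-ribose, rose by 0.84 from a low level (1.19 ± 0.345 TPM with dox and 0.214 ± 0.151 TPM in control, SD, n = 6 each). H2AFY, which encodes the macroH2A histone whose macrodomain can bind ADP-ribose, rose by 0.74, the vault enzyme gene PARP4 by 0.70 and RNF146, a ubiquitin ligase that reads the chains, by 0.58. TIMELESS, a replication fork protein that binds PARP1, fell by 0.74, ENPP1, a phosphodiesterase, by 0.66, and the tankyrase gene TNKS by 0.63.

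Of 13 tested genes of NAD supply and use (19 in the list, 14 deposited), 6 were higher and 1 was lower (32.2% and 25.9% of all genes), and the median was 0.37. NAMPT, which fell, is a member of the 10 and not of this list. NADSYN1, which makes NAD by the route from nicotinic acid, stood at 17.9 ± 8.86 TPM with dox and 4.38 ± 0.940 TPM in control (SD, n = 6 each), 1.7 log2 units higher (limma adjusted p = 0.000197). NMNAT1, the nuclear enzyme that turns the product of NAMPT into NAD, rose by 1.54 (limma adjusted p = 2.55e-05), the riboside kinase gene NMRK1 by 0.95 and the NAD kinase gene NADK by 0.88. SIRT7, a nucleolar NAD-dependent deacylase, fell by 0.68.

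Of 14 genes of PARP1 cleavage and parthanatos, 5 were higher and 1 was lower (32.2% and 25.9% of all genes), with a median of 0.24. DFFA, the inhibitor and chaperone of the nuclease that cuts DNA in apoptosis, stood at 57.7 ± 15.5 TPM with dox and 18.4 ± 6.27 TPM in control (SD, n = 6 each), and rose by 1.61 (limma adjusted p = 4.24e-05), the cyclophilin gene PPIA by 0.72 and the mitochondrial nuclease gene ENDOG by 0.65. HK1, a hexokinase, fell by 0.33. MIF, described as the nuclease of parthanatos, differed by -0.04 (limma adjusted p = 0.839).

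Of 12 replication genes, given for context, 2 were higher and 7 lower (32.2% and 25.9% of all genes), with a median of -0.57. RRM2, of ribonucleotide reductase, fell by 2.86 log2 units, and MCM7 (-1.22), GINS2 (-1.13) and CDC45 (-0.80) were lower too, whereas TYMS rose by 0.72 and MCM3 by 0.58. No gene of the 5 lists was called between KO or OE and WT cells or in an interaction.

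**Figure D4:**
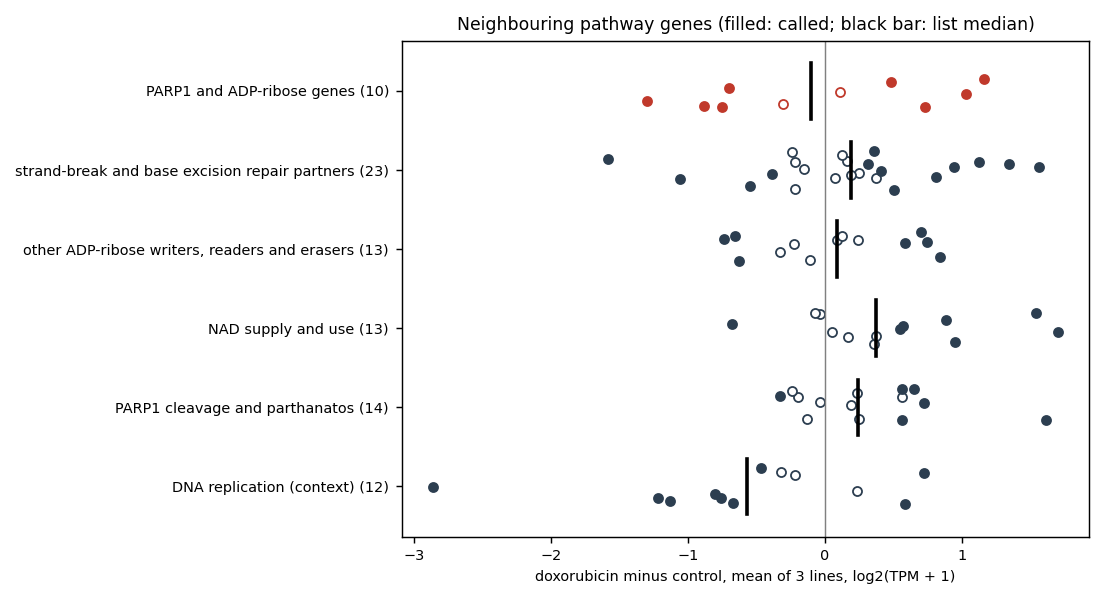
Difference between dox and control on the mean of the 3 lines (x axis, log2(TPM + 1) units) for each tested gene of the 10 (red) and of 5 pathway lists (dark), filled where called, with a black bar at the list median. The 10 genes split to both sides of 0, the NAD genes lie mostly right of 0 (median 0.37) and the replication genes mostly left (median -0.57).

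Across the 12 libraries, after setting the median gene of each library level, PARP1 was closest in pattern to SERPINE2 (Pearson r = 0.986), CORO1C (0.985), RRAGD (0.980), AKR7A2 (0.978) and FKBP9 (0.978) among 8417 protein-coding genes. SERPINE2, a secreted serine protease inhibitor, stood at 11.4 ± 2.16 TPM with dox and 21.2 ± 3.22 TPM in control (SD, n = 6 each). RRAGD, a Rag GTPase of lysosomal mTORC1 signalling, stood at 6.45 ± 1.42 TPM with dox and 15.1 ± 1.68 TPM in control. Among the 10, NAMPT (0.916), HPF1 (0.869), PARP2 (0.831) and XRCC1 (0.818) followed PARP1, MACROD1 did not (0.022), and AIFM1 (-0.531), ADPRHL2 (-0.812), PARG (-0.885) and PARP3 (-0.928) ran against it. The libraries share the medium, and r differed once the mean of each medium was removed. It was then 0.909 for SERPINE2, which had been picked as the highest of 8417 genes in these same libraries. The genes of the 10 were not picked by r, so their values are not comparable with it. For them r was 0.465 for NAMPT, 0.402 for XRCC1, 0.177 for HPF1, -0.174 for PARG and -0.462 for PARP3. The sign changed for PARP2 (-0.117), ADPRHL2 (0.049) and AIFM1 (0.775). These values describe 12 libraries and carry no test.

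**Figure D5:**
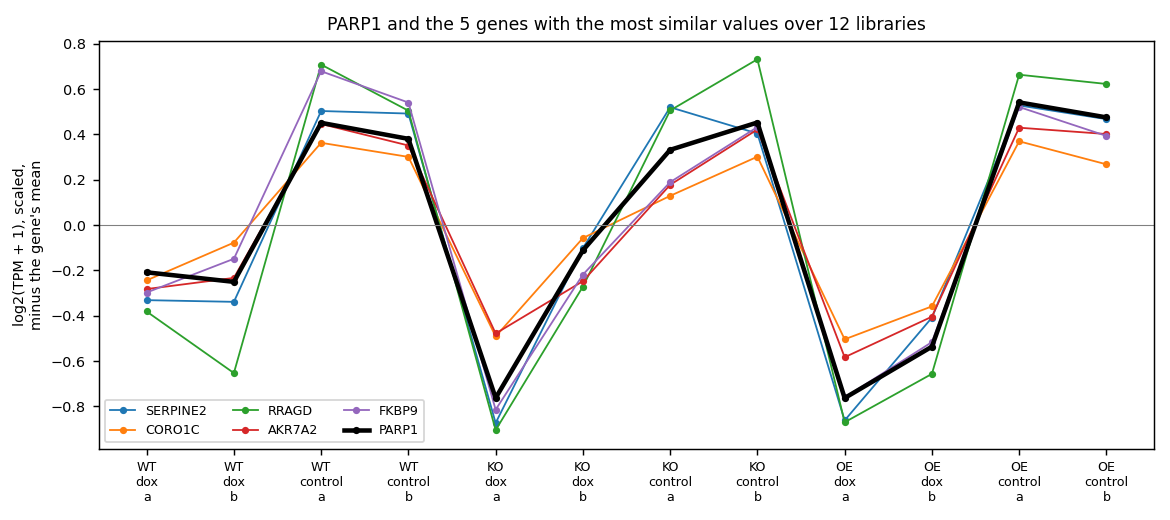
PARP1 (thick black line) and the 5 genes closest to it in pattern in the 12 libraries (x axis), as log2(TPM + 1) after setting the median gene of each library level and subtracting the mean of each gene (y axis). All 6 genes lie below 0 in the 6 dox libraries and above 0 in the 6 control libraries.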

How the data were processed

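Total RNA from 12 HCT116 libraries was prepared with a stranded kit, per the labels' protocols. The authors deposited log2 TPM values for 16676 genes. The tools listed in the submitters' processing notes are edgeR 3.12.1, featureCounts, HISAT2 2.0.4, R 3.3.3 and SAMtools 1.7, with the build hg38, and the annotation, strand setting and filter are not given in the sources used here. TPM shares a fixed total of 1000000 among all RNAs, so 318 small RNA genes, at 50 to 59.8% of it, move every other value. The shift of a library was the median over tested genes of log2 TPM minus the mean of each gene. It lay between -0.317 and 0.282. Symbols, lengths and coordinates came from GENCODE release 29.

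Tests used log2(TPM + 1) of the 15256 genes that reached a TPM of 1 in 2 or more libraries. In R 4.3.3, limma 3.58.1 was fitted with a mean for each of 6 groups and a variance trend (6 residual degrees of freedom) gave 10 comparisons, adjusted within each by Benjamini-Hochberg, called under 0.05. Intervals are at 95% and unadjusted. Groups came from the sample titles. Reads were recovered from the TPM steps and exon lengths: 15182 of 16564 genes (91.7%) gave whole reads within 0.05 reads in all libraries, and 5 did so with shuffled lengths. Another 1490 genes needed a searched length. The recovered reads give the depth and an alternative by limma-voom. Scripts were tested on simulated data. The other alternatives were median-ratio scaling, TPM without small RNA genes, a pseudocount of 0.1, no filter, a mean TPM of at least 5, only the groups compared, a replicate block and each library left out.

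The 10 genes, the 5 lists and the tests were chosen with earlier results of these data known. Named were all 10, up to 4 genes of each list called in each direction, the 5 genes closest to PARP1 (mean TPM of at least 5), and SPARCLE, CDKN1A and CCNB1 as checks. MIF was named after its values were seen. Some genes that this rule names are not reported here. SPARCLE was matched through its RefSeq gene identifier (MIR34BHG).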

Additional observations from a re-analysis of the deposited data

How the results depend on the processing

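On the mean of the lines, 8 of the 10 genes were called in every alternative but median-ratio scaling, which added XRCC1. Within lines the counts moved. In WT cells 6 were called, and 2 to 3 with a library left out. In KO cells 5 were called, 8 with median-ratio scaling, without small RNA genes or by voom, 3 with only the groups compared, and 0 to 5 with a library left out. In OE cells 5 were called, 8 with median-ratio scaling, and 0 to 4 with a library left out. Leaving out a library leaves 1 in a group, which is then assumed to vary like the others. The 0 calls against WT and in the interactions did not change.

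PARP1 for KO over WT in control medium went to -0.01 with median-ratio scaling. Signs turned with a library left out for uncalled differences, among them those given here. XRCC1 for dox in KO cells ran from -0.29 to 0.03. For MACROD1 the differences ran from -0.18 to 0.62 for dox in WT, -0.30 to 0.33 in KO and -0.25 to 0.41 in OE cells. In control medium they ran from -0.32 to 0.48 for KO and -0.10 to 0.70 for OE over WT. For KO over WT with dox they ran from -0.16 to 0.55 (PARP2), -0.49 to 0.45 (PARP3), -0.30 to 0.41 (HPF1), -0.39 to 0.26 (PARG) and -0.47 to 0.22 (MACROD1). For OE over WT with dox they ran from -0.27 to 0.43 (PARP2), -0.54 to 0.25 (PARP3), -0.60 to 0.12 (HPF1), -0.68 to 0.04 (PARG) and -0.19 to 0.50 (MACROD1).

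Over all genes, calls in WT were 4914, with 3289 (mean TPM of at least 5) to 6925 (median-ratio scaling) over the alternatives and 1820 to 3726 after leaving out a library. In KO they were 3695, with 2353 to 5685 and 1167 to 3202. In OE they were 3510, with 2316 to 5948 and 944 to 3787. On the mean they were 8850, with 5434 to 10246 and 7738 to 9111. In control medium 14 were called for KO over WT (3 to 50, and 7 to 13 after leaving out a library) and 18 for OE over WT (8 to 44, and 5 to 15). With dox they were 45 for KO (13 to 77, and 9 to 32) and 48 for OE (17 to 129, and 12 to 22). The single interaction calls ran from 0 to 3 in KO and from 0 to 6 in OE. Replicate letters are a label shared by the groups. The a minus b differences correlated at 0.81 between KO and OE cells with dox and at 0.5 between KO and OE control cells. Those of WT control ran against KO control (-0.389) and OE control (-0.347), and the other pairs lay between -0.103 and 0.248. Libraries of KO and OE cells with the same letter may thus not be independent. With the replicate block, HPF1 in WT (adjusted p = 0.0425) and PARP3 in KO (0.0187) passed as well, and the calls of KO over WT moved to 35 in control medium and 75 with dox, with none of the 10 among them. Crossed letters, tried after seeing the data, gave 50 (KO) and 38 (OE) in control medium. The causes were not tested.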
